A study of Mus musculus with 19 samples.

Results

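The expression of 37 genes of fibroblasts, smooth muscle and extracellular matrix was followed through a mouse lung study of the transcription factor gene Etv5. The genes were taken as the rows of the deposited tables whose Entrez ID belongs to 1 of 37 listed mouse symbols. The match uses no measured value, but the symbols were listed with earlier results of these data known. All 37 were found among the 36528 gene IDs of each table. They fall into 5 roles: 8 collagens, 8 genes of the elastic fibre and of cross-linking, 6 proteoglycans and matricellular proteins, 8 genes of smooth muscle and pericytes, and 7 genes of fibroblast identity and signalling.

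Polyadenylated RNA was sequenced from sorted alveolar type II (AT2) cells, the surfactant-making epithelial cells of the alveolus, and from whole lung, in 19 libraries. Mice labelled Etv5KO carried SpcCreERT2, RosatdTomato and Etv5ko/loxp, that is, 1 knockout allele and 1 allele that Cre can delete. Control mice carried SpcCreERT2 and RosatdTomato as well, and every mouse was given tamoxifen at 100 mg/kg body weight on 5 days and left for another 5 days. The Cre is driven from the surfactant protein C gene, so fibroblasts and smooth muscle cells are not its target, while a knockout allele is not limited to AT2 cells. AT2 cells were sorted as EpCAM+, tdTomato+, CD45- and CD31-. There were 5 AT2 Etv5KO, 4 AT2 control, 5 lung Etv5KO and 5 lung control libraries. The design gives 5 mice per genotype, and 1 further AT2 control library was not analysed here. Ages are not given in the labels, which do not say which libraries came from 1 mouse.

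The stroma of the lung is built by mesenchymal cells. Fibroblasts secrete the fibrillar collagens that carry load, and lay elastin on fibrillin microfibrils to form the elastic fibres that let the alveolus recoil. Smooth muscle cells and pericytes wrap airways and vessels, and fibroblasts next to AT2 cells supply them with growth factors and lipid. AT2 cells sit on a basement membrane, and secrete some matrix proteins themselves.

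Levels are given as CPM, a gene's reads scaled to a fixed library size, scaled by TMM over all 19 libraries. Total counts ran from 17426415 to 26722625 in AT2 Etv5KO, from 20279607 to 28671262 in AT2 control, from 20332410 to 22478603 in lung Etv5KO and from 14971793 to 26989453 in lung control. Etv5 did not fall in libraries with the label Etv5KO: it lay between 615 and 761 CPM in AT2 Etv5KO, against 636 to 718 CPM in AT2 control, with a log2 fold change of 0.10 ± 0.08 (SE, edgeR adjusted p = 0.505). The counts are per gene and the labels do not give the deleted exons. Reads of Sftpc, the surfactant protein C gene, were 5.27% to 6.98% of the total in AT2 Etv5KO and 4.98% to 7.71% in AT2 control. Pecam1, which encodes CD31, lay between 17.4 and 32.0 CPM in AT2 Etv5KO and between 16.6 and 24.1 CPM in AT2 control, against 742 to 1071 CPM over the lung libraries. Lung control library 1 stood apart from its group for 7 of the genes given per library, AT2 control library 2 for 4, and AT2 Etv5KO library 3 for the 2 collagen VI genes. Lung Etv5KO library 4 was low in the sum of all 37 genes. In libraries of many cells, fewer cells of a type and less RNA per cell cannot be told apart.

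Most of the 37 genes were far lower in sorted AT2 cells than in whole lung. In control mice, 36 of 37 were lower in AT2 cells than in lung, and 34 of them by at least 4-fold (edgeR quasi-likelihood test, adjusted p under 0.05). Over all 17118 genes tested, 74.5% passed, 38.9% lower and 35.6% higher, and 21.2% were at least 4-fold lower. With total counts in place of TMM the split of all genes was 3318 higher and 9484 lower, against 6092 higher and 6662 lower. The median log2 fold change of AT2 control over lung control was -5.92 for the 37 genes, against -0.01 for all genes tested. In the Etv5KO mice the same count held, 36 lower and 34 at least 4-fold lower, over a background of 39.7% and 20.2% of 16740 genes tested (78% passed, 38.3% higher), with a median of -5.65. No library of AT2 cells reached any library of lung for these 36 genes in either genotype, as was so for 35.9% of all genes in each genotype.

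**Figure D1:**
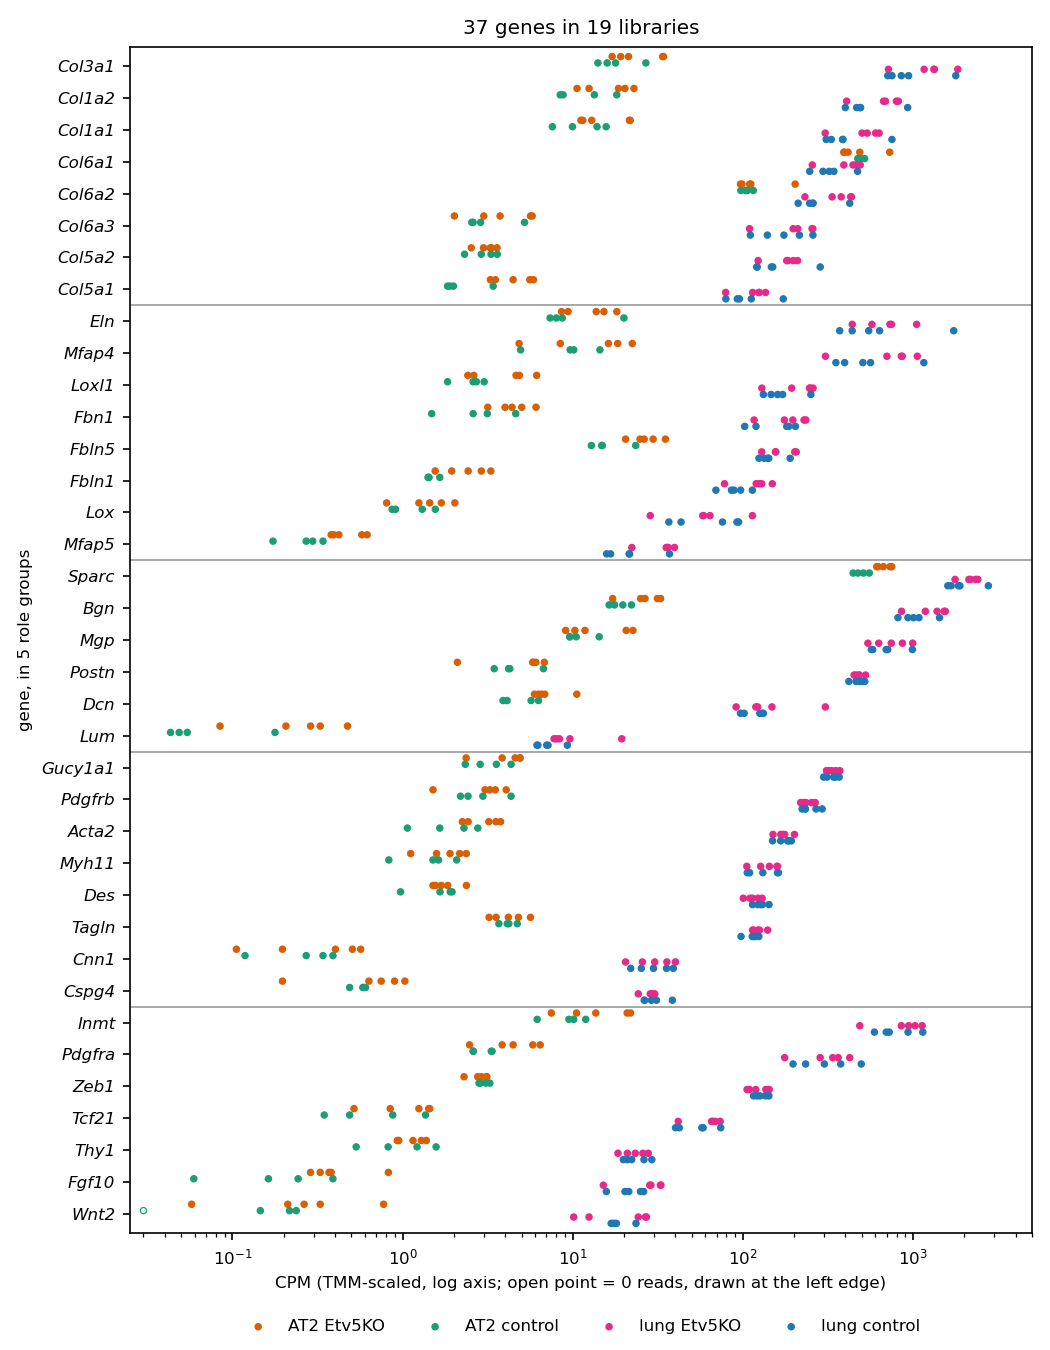
Levels of the 37 genes in 19 libraries, in CPM on a log axis; each point is 1 library, rows are genes ordered within role by their level in control lung, and colours are the 4 groups. Sparc, Fbln5, Col6a1 and Col6a2 stand apart from the other 33 genes by the small distance between their AT2 and lung points, and the open point is Wnt2 in a control AT2 library with 0 reads.

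The level in AT2 cells as a percent of the level in lung showed how the genes differ among themselves. Col6a1 stood at 118% of the lung level in Etv5KO and at 147% in control mice. Col6a2 stood at 34.3% in Etv5KO and 37.8% in control mice, Sparc at 31.3% and 25.3%, and Fbln5 at 16.1% and 11.3%. These 4 genes were set apart after their values were seen. The other 33 genes lay between 1.11% (Postn) and 4.90% (Thy1) of the lung level in Etv5KO, and between 0.804% (Wnt2) and 4.38% (Thy1) in control mice. Their median was 1.92% in Etv5KO and 1.55% in control mice.

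The 16 endothelial markers, genes of a cell type that the CD31- gate removes, had a median log2 fold change of -5.52 in AT2 control over lung control. It was -4.62 for 6 mesothelial markers and -5.03 for 8 lymphocyte markers. For the 33 genes the median was -6.01 in the same comparison. How much of the AT2 level of these 33 genes came from other cells was not tested.

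**Figure D2:**
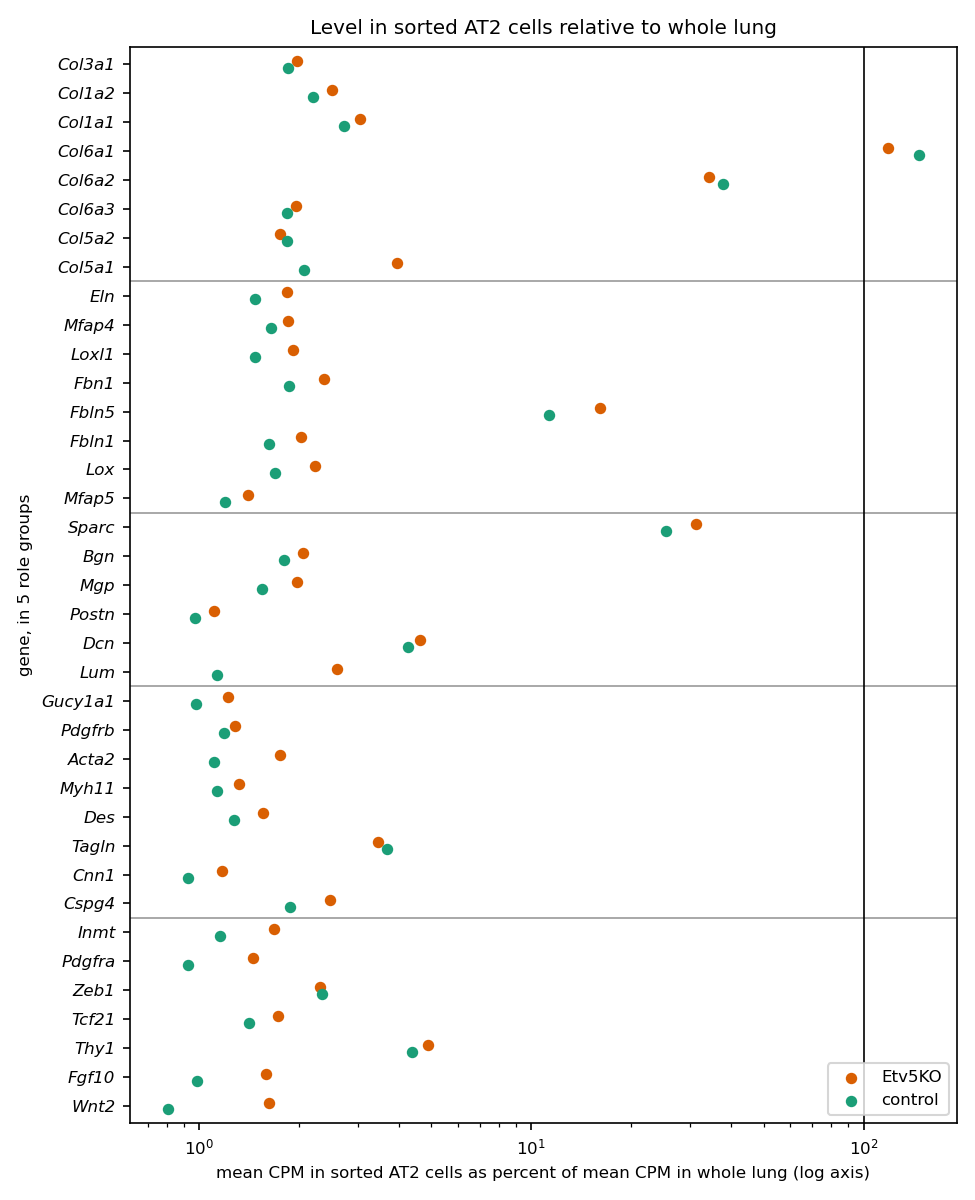
Mean CPM in sorted AT2 cells as a percent of mean CPM in whole lung for each of the 37 genes, on a log axis, in Etv5KO (orange) and control (green) mice; the vertical line marks 100%, an equal level. Col6a1 lies past the line in both genotypes, Col6a2, Sparc and Fbln5 lie between 11.3% and 37.8%, and the other 33 genes lie at 4.90% or below.

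For Sparc, Fbln5 and Col5a1, which changed in AT2 Etv5KO cells, and for Col6a1 and Col6a2, which AT2 cells held at the highest levels relative to lung, the 250 bases before the transcription start are shown from the RefSeq promoter table (GRCm38.p6), each read 5′ to 3′ on the strand of its gene. They lie at chr11:55420081-55420330 (minus strand) for Sparc, chr12:101819120-101819369 (minus) for Fbln5, chr2:27886175-27886424 (plus) for Col5a1, chr10:76726045-76726294 (minus) for Col6a1 and chr10:76623405-76623654 (minus) for Col6a2. Fbln5 and Col6a2 have 2 starts in the table, and the first is shown. Capitals mark AGGAAG, a core read by ETS factors of the Etv5 type, or its reverse complement CTTCCT.
Sparc: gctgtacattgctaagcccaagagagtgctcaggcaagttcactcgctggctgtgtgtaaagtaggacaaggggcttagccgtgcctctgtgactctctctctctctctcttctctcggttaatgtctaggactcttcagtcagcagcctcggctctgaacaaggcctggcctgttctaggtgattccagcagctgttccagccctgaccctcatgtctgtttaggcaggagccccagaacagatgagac
Fbln5: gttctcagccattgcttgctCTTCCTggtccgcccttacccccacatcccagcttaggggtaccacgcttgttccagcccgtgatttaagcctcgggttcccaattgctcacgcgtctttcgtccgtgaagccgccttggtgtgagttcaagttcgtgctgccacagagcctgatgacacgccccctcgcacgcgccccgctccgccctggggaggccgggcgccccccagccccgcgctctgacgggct
Col5a1: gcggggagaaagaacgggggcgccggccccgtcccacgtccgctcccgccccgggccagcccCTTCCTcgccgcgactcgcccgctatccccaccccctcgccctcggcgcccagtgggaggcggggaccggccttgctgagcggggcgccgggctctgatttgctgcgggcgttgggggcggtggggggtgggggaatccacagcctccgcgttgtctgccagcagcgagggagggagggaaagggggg
Col6a1: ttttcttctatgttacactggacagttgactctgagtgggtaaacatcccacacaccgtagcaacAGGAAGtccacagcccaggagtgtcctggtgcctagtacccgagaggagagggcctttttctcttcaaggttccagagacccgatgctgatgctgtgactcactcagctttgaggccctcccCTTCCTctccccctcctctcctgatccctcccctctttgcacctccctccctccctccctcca
Col6a2: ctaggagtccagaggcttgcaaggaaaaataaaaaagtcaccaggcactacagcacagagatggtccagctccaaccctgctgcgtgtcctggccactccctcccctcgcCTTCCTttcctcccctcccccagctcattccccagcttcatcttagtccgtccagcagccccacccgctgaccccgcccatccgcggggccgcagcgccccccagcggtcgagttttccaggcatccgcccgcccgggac

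The marked letters began 230 bases before the start in Fbln5, 188 in Col5a1, 185 and 63 in Col6a1 and 140 in Col6a2, and were not found in the window of Sparc. Of the 37 genes, 22 have an entry in the table, and 9 of these 22 (40.9%) held the letters on either strand in at least 1 window, against 32.3% of all genes in the table. No other motif was searched. A match is a description of letters and not a binding site.

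In sorted AT2 cells, 3 matrix genes rose in Etv5KO: Sparc, which encodes osteonectin, Fbln5, which encodes fibulin-5, and Col5a1, which encodes a collagen V chain. They were 3 of the 32 genes tested, and none fell. Over all 14939 genes tested 9.87% passed, 5.03% higher and 4.84% lower. The split of all genes was 751 higher and 723 lower, and 894 higher and 482 lower with total counts in place of TMM. The other 5 genes were too low in AT2 cells to be tested there (Mfap5, Lum, Cnn1, Wnt2 and Fgf10). At an unadjusted p under 0.05, 10 of the 32 were higher and 0 lower, against 10.8% and 11.4% of all genes tested. The log2 fold change was positive for 30 of the 32, with a median of 0.43, against 48.8% positive and a median of -0.01 over all genes. By role, the median was 0.36 for the 8 collagens, 0.61 for 7 elastic fibre genes, 0.46 for 5 proteoglycans and matricellular genes, 0.28 for 7 smooth muscle and pericyte genes and 0.54 for 5 fibroblast genes. Leaving out 1 library at a time gave between 1 and 6 genes that rose, the 1 being Sparc in every such case. Of all genes, 539 to 824 rose in these settings. AT2 Etv5KO library 5 was the highest of the 9 AT2 libraries for 21 of the 37 genes and AT2 control library 4 the lowest for 13, and without library 5 the median was 0.28. With DESeq2, 4 of the genes rose, where 969 of all genes rose and 891 fell. The sign of the value turned with 1 library left out for 7 of the 32, none of them past the threshold (Col5a2, Col6a1, Col6a2, Tagln, Des, Pdgfrb and Thy1).

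**Figure D3:**
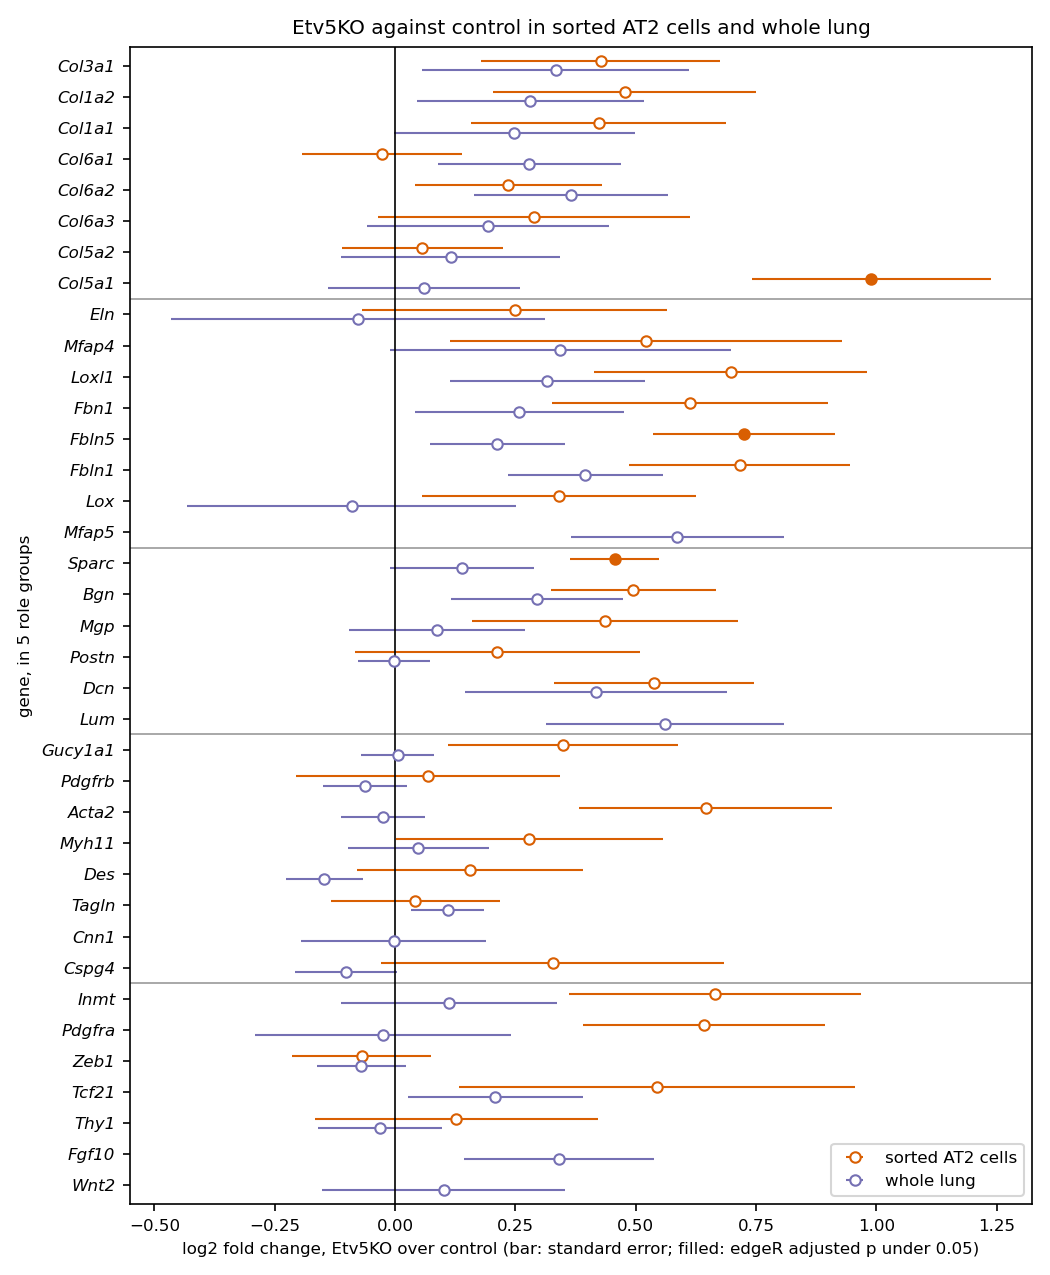
Log2 fold change of Etv5KO over control for each of the 37 genes in sorted AT2 cells (orange) and whole lung (purple), with the standard error as a bar; filled points passed the edgeR test at an adjusted p under 0.05. Col5a1, Fbln5 and Sparc in AT2 cells are the filled points, no lung point is filled, and Mfap5, Lum, Cnn1, Fgf10 and Wnt2 have a lung point only.

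Markers of other cells were read beside these counts. Of 6 mesothelial markers, 5 were tested and 1 rose (Msln, 0.82 ± 0.23, edgeR adjusted p = 0.0463), with a median log2 fold change of 0.63. Their summed level ran from 20.5 to 30.9 CPM in AT2 Etv5KO and from 11.5 to 21.0 CPM in AT2 control. That of 16 endothelial markers ran from 338 to 434 CPM in Etv5KO and from 353 to 429 CPM in control, with 1 that rose (Car4), 1 that fell (Esam) and a median log2 fold change of 0.26. That of 8 lymphocyte markers ran from 41.3 to 57.8 CPM in Etv5KO and from 25.9 to 45.5 CPM in control, with none of the 5 tested past the threshold and a median of 0.50. That of 8 airway markers ran from 785 to 1153 CPM in Etv5KO and from 412 to 842 CPM in control, with 2 of the 7 tested rising (Cyp2f2 and Tppp3) and a median of 0.67. Markers of AT1 cells, the flat cells of the alveolus, summed to 3734 to 4202 CPM in Etv5KO and 2684 to 3506 CPM in control, with no overlap, 4 of 8 rising, 1 falling and a median of 0.42. General epithelial markers summed to 4707 to 4945 CPM in Etv5KO and 3779 to 3942 CPM in control, with 2 of 6 rising and a median of 0.23. Of 10 AT2 markers, 3 fell and none rose, with a median of -0.28. Of 14 macrophage markers, 1 rose and 1 fell, with a median of -0.0004. Without Lyz2, Cd14 and Ctss they summed to 65.3 to 82.4 CPM in Etv5KO and 51.1 to 85.5 CPM in control. Wt1 (mesothelial) was at 0 in 1 of the 9 AT2 libraries and Krt5 (airway) in 2, and no other marker of these lists was at 0 in any. The part of other cells in the AT2 values of the 33 low genes was not tested.

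In lung, 0 of the 37 genes passed between Etv5KO and control in edgeR. The edgeR background was 0.415% (0.205% higher and 0.211% lower) of 17098 genes tested. In DESeq2 0 of the 37 passed too, where 197 of all genes did (123 higher and 74 lower). At an unadjusted p under 0.05, 3 were higher (Fbln1, Mfap5 and Lum) and 0 lower, against 3.33% and 2.19% of all genes. No gene had groups without overlap, as was so for 0.977% of all genes in the higher and 0.544% in the lower direction. The log2 fold change was positive for 26 of the 37, with a median of 0.12, against 46.0% positive and a median of -0.01 over all genes. By role the median was 0.26 for collagens, 0.29 for elastic fibre genes, 0.22 for proteoglycans and matricellular genes, -0.01 for smooth muscle and pericyte genes and 0.10 for fibroblast genes. Without control library 1 the median was 0.29, 14 genes had an unadjusted p under 0.05 and the lowest adjusted p was 0.0533 (Mfap5, 0.84). The values were then 0.56 for Col6a2, 0.73 for Mfap4, 0.32 for Fbln5 and 0.29 for Sparc (adjusted p = 0.197, 0.421, 0.414 and 0.363). Without Etv5KO library 4 the median was 0.27, 10 genes had an unadjusted p under 0.05 and the lowest adjusted p was 0.153. The share of all genes at this unadjusted p is not given for these settings. The counts of 14 and 10 can therefore not be set against a background. The sign turned with 1 library left out for 14 of the 37 genes: Col5a1, Eln, Lox, Mgp, Postn, Acta2, Myh11, Cnn1, Gucy1a1, Cspg4, Pdgfrb, Pdgfra, Wnt2 and Thy1.

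The collagens are the scaffold of the interstitium. Col3a1, a fibrillar collagen of compliant tissue, was the collagen with the highest RPKM (a read rate per length of the gene and per size of the library) in lung, at 222 ± 69.2 in Etv5KO and 175 ± 75.6 in control lung (SD, n = 5 each). Its AT2 libraries held 21.3, 33.8, 19.1, 17.0 and 34.1 CPM in Etv5KO, against 17.9, 26.9, 15.9 and 14.1 CPM in control. Its lung libraries held 1328, 1832, 1331, 717 and 1161 CPM in Etv5KO, against 1783, 853, 752, 710.0 and 941 CPM in control. Groups overlapped in both tissues, and control lung library 1 was far above the other 4 control libraries. Col3a1 did not pass in AT2 cells (log2 fold change 0.43 ± 0.25, adjusted p = 0.352) or in lung (0.33 ± 0.28, adjusted p = 0.978). Without control library 1 the lung value was 0.64 (adjusted p = 0.299).

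Col6a1 and Col6a2 encode chains of collagen VI, the microfibrillar collagen that anchors basement membranes to the interstitium. AT2 cells held Col6a1 at 394, 486, 729, 415 and 392 CPM in Etv5KO, against 473, 519, 493 and 490.1 CPM in control. Lung held it at 444, 463, 489, 256 and 392 CPM in Etv5KO, against 472, 322, 342, 247 and 296 CPM in control. The AT2 control libraries lay in a narrow range above all control lung libraries, while AT2 Etv5KO library 3 stood far above the other AT2 libraries. Col6a1 was the only 1 of the 37 genes higher in AT2 control than in lung control, by 0.56 ± 0.15 on the log2 scale (adjusted p = 0.00557), with no overlap of libraries, as for 30.6% of all genes tested. With total counts in place of TMM, which shifts the median of all genes by about -0.42 between these tissues, it was 0.15 and did not pass (adjusted p = 0.439). In Etv5KO mice the difference was 0.26 ± 0.20 and did not pass (adjusted p = 0.244), and it was 0.07 without AT2 Etv5KO library 3.

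Col6a2 was held by AT2 cells at 98.7, 109.6, 203, 111 and 96.8 CPM in Etv5KO, against 106, 97.3, 115 and 104 CPM in control, and library 3 of the Etv5KO group was again the high one. In lung it was 378, 434, 429.8, 231 and 334 CPM in Etv5KO, against 424, 258, 258, 211 and 247 CPM in control. It was lower in AT2 control than in lung control, with a log2 fold change of -1.40 ± 0.18 (adjusted p = 1.58e-05). Neither chain passed between genotypes in AT2 cells, with log2 fold changes of -0.03 ± 0.17 for Col6a1 and 0.24 ± 0.19 for Col6a2 (adjusted p = 0.955 and 0.543). Without Etv5KO library 3 the value was -0.22 for Col6a1 and -0.016 for Col6a2. In lung they were 0.28 ± 0.19 and 0.37 ± 0.20 (adjusted p = 0.978 and 0.978).

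The usual partner chain, Col6a3, was far lower than both in AT2 cells, a comparison chosen after its values were seen. Per length, the RPKM of Col6a1 was 185 to 662 times that of Col6a3 in AT2 Etv5KO and 272 to 524 times in AT2 control, against 4.15 to 6.37 times in lung Etv5KO and 4.08 to 6.09 times in lung control. The RPKM of Col6a1 over that of Col6a2 was 5.43 to 6.71 in AT2 Etv5KO and 6.47 to 8.07 in AT2 control, against 1.61 to 1.77 in lung Etv5KO and 1.68 to 2.01 in lung control. The ranges of AT2 cells and lung did not overlap for either ratio. The other chain genes, Col6a4, Col6a5 and Col6a6, reached at most 0.106 CPM in an AT2 Etv5KO library and 0.195 CPM in an AT2 control library.

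Col5a1 encodes a collagen V chain, which sits inside collagen I fibrils and sets their diameter. It was 4.46, 5.59, 3.51, 3.28 and 5.88 CPM in AT2 Etv5KO, against 1.90, 3.41, 1.99 and 1.84 CPM in AT2 control. AT2 control library 2 was above 1 of the Etv5KO libraries, and the other 3 control libraries were below all of them. It rose in AT2 Etv5KO cells by 0.99 ± 0.25 on the log2 scale (adjusted p = 0.0266). Without control library 2 the adjusted p was 0.00542. The call was lost when any 1 of 6 libraries was left out (AT2 Etv5KO 1, 2 and 5 and AT2 control 1, 3 and 4), with adjusted p up to 0.0834. Lung held Col5a1 at 124, 125, 136, 79.2 and 114 CPM in Etv5KO, against 173, 95.5, 112, 79.4 and 92.7 CPM in control, with overlap and a log2 fold change of 0.06 ± 0.20 (adjusted p = 0.991). Its partner chain Col5a2 had a log2 fold change of 0.06 ± 0.17 in AT2 cells and did not pass (adjusted p = 0.895), nor did Col1a1, Col1a2 or Col6a3.

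**Figure D4:**
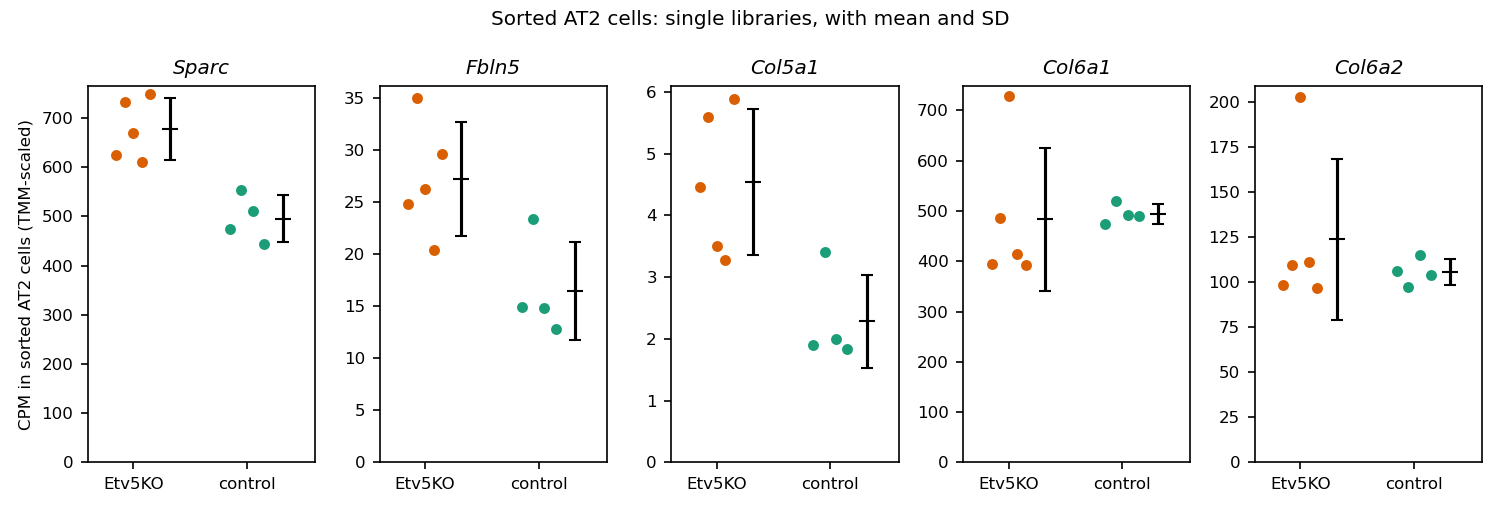
CPM of Sparc, Fbln5, Col5a1, Col6a1 and Col6a2 in the 5 Etv5KO (left, orange) and 4 control (right, green) libraries of sorted AT2 cells; points are libraries, and the black bar gives mean and SD. The Sparc points of the groups do not overlap, those of Fbln5 and Col5a1 overlap through 1 high control library, and 1 Etv5KO library lies far above the rest for both collagen VI genes.

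Among the genes of the elastic fibre, Mfap4, a microfibril-associated glycoprotein, had the highest RPKM in lung, at 443 ± 164 in Etv5KO and 347 ± 187 in control (SD, n = 5 each). AT2 libraries held 16.2, 18.4, 8.45, 4.84 and 22.4 CPM in Etv5KO, against 4.94, 14.4, 9.65 and 10.1 CPM in control. Lung libraries held 702, 853, 1059, 306 and 864 CPM in Etv5KO, against 1157, 507, 396, 352 and 562 CPM in control. The spread within each group was wide, and Mfap4 passed in neither tissue (adjusted p = 0.512 in AT2 cells and 0.978 in lung).

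Fbln5 encodes fibulin-5, which tethers elastin to microfibrils and is needed for elastic fibre assembly. AT2 cells held it at 24.9, 35.0, 26.3, 20.4 and 29.7 CPM in Etv5KO, against 14.9, 23.4, 14.8 and 12.9 CPM in control. Control library 2 lay above the lowest Etv5KO library, and the other 3 control libraries lay below all 5. Fbln5 rose in AT2 Etv5KO cells by 0.73 ± 0.19 on the log2 scale (adjusted p = 0.0322). Without control library 2 the adjusted p was 0.00269. When any 1 of 7 libraries was left out (AT2 Etv5KO 1, 2, 3 and 5 and AT2 control 1, 3 and 4) it was 0.0517 to 0.0969, and with total counts in place of TMM it was 0.0513. In lung it was 156, 155, 206, 129 and 202 CPM in Etv5KO, against 189, 133, 124, 142 and 140.1 CPM in control, and did not pass (0.21 ± 0.14, adjusted p = 0.978). In AT2 control over lung control it stood at -3.14 ± 0.19 (adjusted p = 1.85e-08).

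The other elastic fibre genes tested in AT2 cells did not pass. Fbln1, a fibulin of basement membranes and elastic fibres, was 2.43, 2.90, 1.94, 1.55 and 3.30 CPM in AT2 Etv5KO, against 1.41, 1.65, 1.43 and 1.42 CPM in AT2 control (0.72 ± 0.23, adjusted p = 0.0795), and it passed without AT2 Etv5KO library 4 (adjusted p = 0.0316). Loxl1 and Lox, which encode enzymes that cross-link elastin and collagen, had log2 fold changes of 0.70 ± 0.28 and 0.34 ± 0.28 (adjusted p = 0.1697 and 0.549). Fbn1, which encodes fibrillin, stood at 0.61 ± 0.29 and Eln, which encodes elastin, at 0.25 ± 0.32 (adjusted p = 0.237 and 0.720). Mfap5, a further microfibril protein, was at or below 0.619 CPM in AT2 libraries and was too low to be tested there.

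In lung, Fbln1 and Mfap5 were 2 of the 3 genes nearest to the threshold on the higher side. Fbln1 held 124, 149, 119.7, 77.96 and 129 CPM in lung Etv5KO, against 114, 88.6, 85.6, 69.4 and 97.0 CPM in lung control, with 0.40 ± 0.16 on the log2 scale (adjusted p = 0.781). Mfap5 held 36.3, 35.4, 39.6, 22.3 and 36.2 CPM in lung Etv5KO, against 37.05, 15.8, 21.6, 16.7 and 21.5 CPM in lung control, with 0.59 ± 0.22 (adjusted p = 0.697). For Fbln1, 4 of the 5 Etv5KO libraries lay above all 5 control libraries and Etv5KO library 4 lay among the controls. For Mfap5, all 5 Etv5KO libraries lay above 4 of the control libraries and control library 1 lay among the Etv5KO libraries.

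Sparc encodes osteonectin, a secreted collagen-binding matricellular protein that endothelial cells make as well as fibroblasts. Per length it was the most abundant of the 37 genes in AT2 cells, at 199 ± 18.5 RPKM in Etv5KO (SD, n = 5) and 143 ± 13.6 RPKM in control (SD, n = 4). Its AT2 libraries held 625, 733, 669, 611 and 749.7 CPM in Etv5KO, against 474, 553, 511 and 444 CPM in control. Each Etv5KO library lay above each control library, which was so for no other of the 32 genes tested, and for 5.9% of all genes tested in this direction and 6.49% in the other. Of the genes too low to be tested, Mfap5 had no overlap in CPM either, at 0.380 to 0.619 CPM in AT2 Etv5KO and 0.173 to 0.341 CPM in AT2 control. These values rested on 6 to 12 reads in each Etv5KO library and 4 to 7 in each control library, and the read counts overlap. Sparc rose by 0.46 ± 0.09 on the log2 scale (adjusted p = 0.00818), and still passed when any 1 library was left out, with adjusted p between 0.00448 and 0.0315. In lung it was 2179, 2332, 2403, 1765 and 2128 CPM in Etv5KO, against 2770.0, 1674, 1601, 1884 and 1849 CPM in control. These groups overlapped, and Sparc did not pass in lung (0.14 ± 0.15, adjusted p = 0.978). In AT2 control over lung control it stood at -1.98 ± 0.16 (adjusted p = 3.35e-07).

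Mgp, matrix Gla protein, an inhibitor of calcification, had the highest RPKM of all 37 genes in lung, at 1224 ± 298 in Etv5KO and 1144 ± 268 in control (SD, n = 5 each). AT2 libraries held 20.6, 10.3, 9.09, 11.8 and 22.6 CPM in Etv5KO, against 9.60, 14.3, 10.5 and 9.61 CPM in control, and lung libraries 628, 866, 745, 543 and 995 CPM in Etv5KO, against 991, 569, 709.7, 579 and 695 CPM in control. Groups overlapped in both tissues. Mgp did not pass in AT2 cells (0.44 ± 0.28, adjusted p = 0.4003) or in lung (0.09 ± 0.18, adjusted p = 0.984).

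Bgn and Dcn encode small proteoglycans that bind collagen fibrils. Their log2 fold changes in AT2 cells were 0.49 ± 0.17 and 0.54 ± 0.21, and neither passed (adjusted p = 0.104 and 0.146). Bgn passed with DESeq2 (adjusted p = 0.0480) and in edgeR without AT2 Etv5KO library 4 (adjusted p = 0.0116). Lum, which encodes the keratan sulphate proteoglycan lumican, had 2 to 9 reads in each AT2 Etv5KO library and 1 to 3 in each AT2 control library and was not tested there. In lung Lum was 7.76, 19.4, 8.35, 9.63 and 8.03 CPM in Etv5KO, against 9.29, 7.03, 6.17, 7.16 and 6.24 CPM in control, with 0.56 ± 0.25 (adjusted p = 0.864). Etv5KO library 2 held the highest Lum level of the lung libraries, and the lowest Etv5KO library lay below the highest control library. Without Etv5KO library 2 the value was 0.23.

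Postn, which encodes periostin, a matricellular protein of activated fibroblasts, was among the genes with the widest gap between sorted cells and tissue. Its AT2 libraries held 2.10, 6.07, 5.88, 5.82 and 6.81 CPM in Etv5KO, against 6.73, 3.45, 4.20 and 4.27 CPM in control. Its lung libraries held 450.3, 460.4, 485, 526 and 476 CPM in Etv5KO, against 485, 419.5, 462, 506 and 520.4 CPM in control. The log2 fold change of AT2 control over lung control was -6.69 ± 0.19 (adjusted p = 4.86e-11). Between genotypes it was 0.21 ± 0.30 in AT2 cells and 0.00 ± 0.07 in lung (adjusted p = 0.748 and 0.999).

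Of the 5 roles, the smooth muscle and pericyte genes had the narrowest range of summed level in lung, 1.23 times from the lowest to the highest of the 10 libraries. Tagln, which encodes the actin-binding protein transgelin, had the highest RPKM of this role in lung, 75.5 ± 6.18 in Etv5KO and 69.5 ± 6.04 in control (SD, n = 5 each). Its AT2 libraries held 3.54, 5.65, 4.18, 3.22 and 4.80 CPM in Etv5KO, against 4.12, 4.72, 3.68 and 4.21 CPM in control, and its lung libraries 139.8, 116, 125, 114 and 123 CPM in Etv5KO, against 119, 97.5, 124, 116 and 113 CPM in control. Neither difference passed (0.04 ± 0.18 in AT2 cells and 0.11 ± 0.08 in lung, adjusted p = 0.927 and 0.978).

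Gucy1a1, a subunit of the nitric oxide receptor guanylate cyclase of pericytes and muscle, differed least among the lung libraries, with a highest level 1.24 times the lowest over all 10. It was 309.9, 333, 319, 351 and 371 CPM in lung Etv5KO, against 312, 298, 341, 368 and 351 CPM in lung control (0.01 ± 0.08, adjusted p = 0.998). Its AT2 libraries held 2.36, 4.59, 3.85, 4.89 and 4.90 CPM in Etv5KO, against 4.34, 2.34, 2.86 and 3.56 CPM in control (0.35 ± 0.24, adjusted p = 0.446). AT2 control over lung control gave -6.68 ± 0.17 (adjusted p = 2.56e-11).

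Des, the muscle intermediate filament desmin, and Cspg4, the NG2 proteoglycan of pericytes, were 2 of the 3 genes with the smallest unadjusted p on the lower side in lung. Des was 129.7, 101, 110.0, 123 and 114 CPM in lung Etv5KO, against 122, 114, 142, 127 and 130.3 CPM in lung control (-0.15 ± 0.08, adjusted p = 0.978). Cspg4 was 28.6, 24.3, 29.0, 30.3 and 29.1 CPM in lung Etv5KO, against 31.0, 38.5, 29.0, 26.3 and 26.4 CPM in lung control (-0.10 ± 0.11, adjusted p = 0.978), and was 0.0089 without control library 2, its highest. The groups overlapped for both. Acta2, smooth muscle actin, had log2 fold changes of 0.65 ± 0.26 in AT2 cells and -0.02 ± 0.09 in lung, neither past the threshold (adjusted p = 0.1702 and 0.992). Myh11, the smooth muscle myosin heavy chain, and Pdgfrb, the pericyte receptor of platelet-derived growth factor, did not pass in either tissue. Cnn1, which encodes calponin, had 2 to 12 reads in each AT2 Etv5KO library and 2 to 9 in each AT2 control library and was tested in lung only, where its log2 fold change was 0.00 ± 0.19 (adjusted p = 0.999).

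Among the genes of fibroblast identity, Inmt, a methyltransferase of lung fibroblasts, had the highest RPKM in lung, 842 ± 235 in Etv5KO and 774 ± 209 in control (SD, n = 5 each). Its lung libraries held 853, 942, 1027, 486 and 1130.5 CPM in Etv5KO, against 593, 724, 1140.4, 696 and 934 CPM in control. Its AT2 libraries held 21.9, 13.7, 10.5, 7.48 and 20.9 CPM in Etv5KO, against 9.50, 6.18, 10.1 and 11.9 CPM in control. The groups overlapped in both tissues, and Inmt passed in neither (0.66 ± 0.30 in AT2 cells and 0.11 ± 0.22 in lung, adjusted p = 0.224 and 0.983).

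Pdgfra marks the alveolar fibroblasts that receive platelet-derived growth factor from the epithelium. AT2 libraries held it at 4.46, 6.44, 3.85, 2.48 and 5.83 CPM in Etv5KO, against 2.60, 3.36, 2.60 and 3.32 CPM in control, and lung libraries at 363, 284, 338, 176 and 424 CPM in Etv5KO, against 234, 301, 496, 197 and 376 CPM in control. AT2 control over lung control gave -6.76 ± 0.32 (adjusted p = 2.50e-09). Between genotypes it was 0.64 ± 0.25 in AT2 cells (adjusted p = 0.152), and it passed there without AT2 Etv5KO library 4 (adjusted p = 0.0315). In lung it was -0.02 ± 0.27 (adjusted p = 0.998).

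Wnt2 encodes a WNT ligand of the lung mesenchyme, and was the gene with the lowest ratio of AT2 control to lung control, -6.89 ± 0.31 on the log2 scale (adjusted p = 1.56e-09). It had 1 to 15 reads in each AT2 Etv5KO library and 0 to 5 in each AT2 control library, and the library with 0 reads allows up to 0.163 CPM (3 reads, counting error only). Lung libraries held 12.5, 27.1, 24.3, 10.1 and 26.7 CPM in Etv5KO, against 17.2, 16.8, 23.5, 18.1 and 17.6 CPM in control (0.10 ± 0.25, adjusted p = 0.985). Fgf10, the fibroblast ligand of the epithelial FGF receptor, had 5 to 16 reads in each AT2 Etv5KO library and 1 to 9 in each AT2 control library, and stood at 0.34 ± 0.20 in lung (adjusted p = 0.978). Tcf21, a transcription factor of lipid-laden fibroblasts, and Thy1, a surface antigen of mesenchymal cells and lymphocytes, did not pass in either tissue.

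Zeb1 encodes a repressor of epithelial genes made by mesenchymal cells. It was 1 of the 2 members tested in AT2 cells with a negative log2 fold change, the other being Col6a1. AT2 libraries held 2.30, 2.90, 3.13, 2.76 and 3.09 CPM in Etv5KO, against 3.26, 2.87, 2.81 and 3.08 CPM in control (-0.07 ± 0.14, adjusted p = 0.839). Lung libraries held 136, 106, 109, 119 and 143 CPM in Etv5KO, against 116, 121, 142, 136 and 126 CPM in control (-0.07 ± 0.09, adjusted p = 0.978). The groups overlapped in both tissues.

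The lung libraries differed most in the elastic fibre, collagen and fibroblast roles and least in the muscle role. Over the 10 lung libraries, the highest summed level was 3.09 times the lowest for elastic fibre genes, 2.32 times for collagens and 2.18 times for fibroblast genes. It was 1.56 times for proteoglycans and matricellular genes and 1.23 times for smooth muscle and pericyte genes. Wide ranges were not limited to these roles. Among marker lists the range was 2.29 times for lymphocyte, 2.27 times for mesothelial, 1.94 times for airway and 1.29 times for epithelial markers. Elastic fibre genes summed to 2573, 2406, 2722, 1248 and 2344 CPM in lung Etv5KO, against 3778, 1568, 1715, 1222 and 1711 CPM in lung control. Smooth muscle and pericyte genes summed to 1237, 1068, 1147, 1230.4 and 1251 CPM in lung Etv5KO, against 1141, 1113, 1314, 1255 and 1149 CPM in lung control. Control library 1 was high in the elastic fibre sum and not in the smooth muscle sum. Etv5KO library 4 was low in the elastic fibre sum and not in the smooth muscle sum, and so was control library 4.

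Eln, named after its values were seen, had the widest range of single genes, 4.68 times over the 10 lung libraries. It was 1050.1, 731, 746, 439 and 573 CPM in lung Etv5KO, against 1734, 439, 636, 371 and 549 CPM in lung control, and did not pass (-0.08 ± 0.39, adjusted p = 0.992). Its direction turned without control library 1, to 0.50 (adjusted p = 0.529), and without Etv5KO library 4, to 0.054. Control library 1 was the highest lung library for 9 of the 37 genes and Etv5KO library 2 for 7. Etv5KO library 4 was the lowest for 12, control library 4 for 10 and Etv5KO library 2 for 6. Airway markers moved with control library 1: the sum of 8 of them ran from 17726 to 23777 CPM in lung Etv5KO, and was 13928 CPM in control library 1, the lowest of the 10 lung libraries, and 23634 to 26971 CPM in the other 4. Mesothelial markers moved with Etv5KO library 4: the sum of 6 of them was 218 CPM there, the lowest of the 10, against 465 to 495 CPM in the other Etv5KO and 289.8 to 434 CPM in the control libraries. Other marker lists stood near an end in these libraries too. AT1 markers were also lowest in Etv5KO library 4, at 4893 CPM. Macrophage markers without Lyz2, Cd14 and Ctss were highest in control library 1, at 1402 CPM. Endothelial, AT2, AT1 and epithelial markers ranked 9 of 10 in control library 1, and mesothelial markers ranked 8, at 328 CPM. The part of these cell types in the matrix values was not tested.

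**Figure D5:**
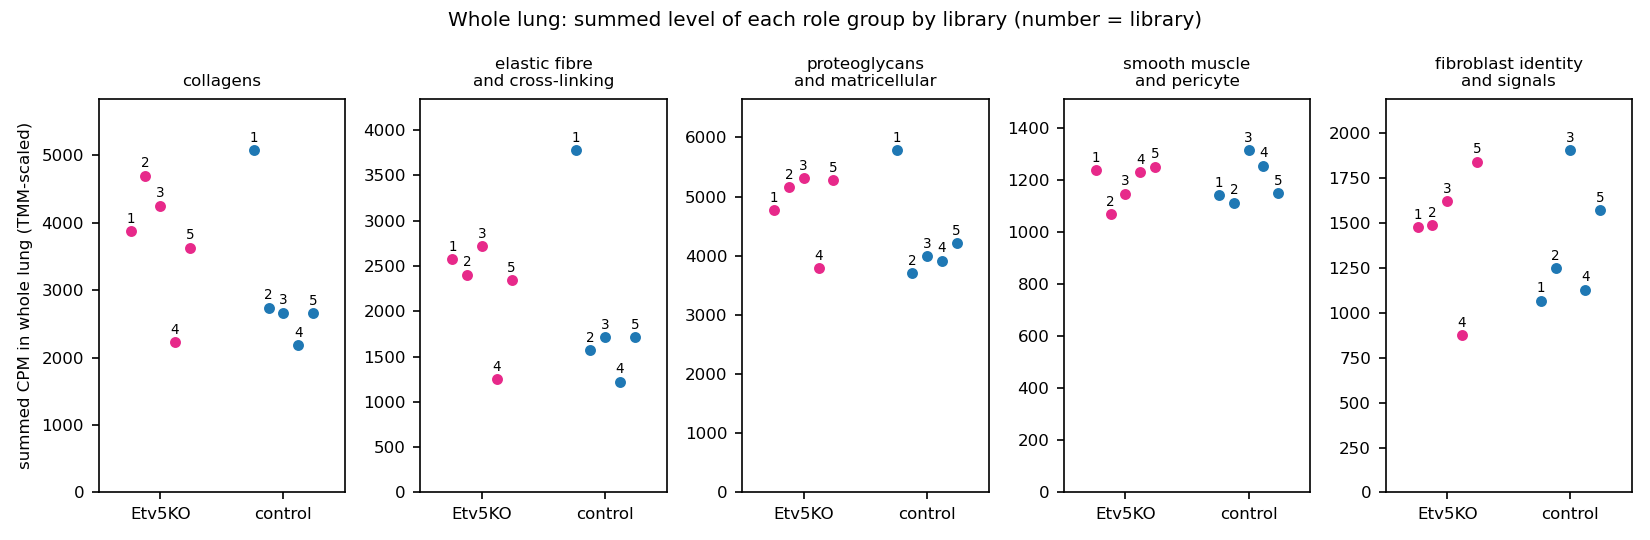
Summed CPM of the genes of each role in the 5 Etv5KO (left) and 5 control (right) libraries of whole lung, with library numbers beside the points and axes from 0. Control library 1 is the highest point for collagens, elastic fibre genes and proteoglycans, Etv5KO library 4 is the lowest Etv5KO point for the same roles and for fibroblast genes, and the smooth muscle sums stay within 1.23 times of each other.

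The difference of the Etv5KO effects, AT2 cells minus lung, was tested over all 19 libraries. In edgeR none of the 37 genes passed, over a background of 1.59% (0.791% higher and 0.802% lower) among 17698 genes. In DESeq2 none of the 37 passed either, where 467 of all genes did. The difference was 0.31 ± 0.19 for Sparc, 0.50 ± 0.25 for Fbln5 and 0.92 ± 0.35 for Col5a1 on the log2 scale (adjusted p = 0.667, 0.522 and 0.304). The lowest adjusted p was that of Acta2, 0.258, with a difference of 0.66 ± 0.24. So the rises in AT2 cells were not shown to differ from the values in lung. The median difference over the 37 genes was 0.31 and 32 were positive, against a median of -0.008 and 48.4% positive over all genes tested. The median was 0.18 without lung control library 1 and 0.16 without AT2 Etv5KO library 5.

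Other genes of the same kinds were read from lists of the pathway, chosen by role, and their counts stand beside 5.03% of all 14939 genes that rose and 4.84% that fell in AT2 cells (9.87% in all). Of 26 further interstitial matrix genes, 23 were tested in AT2 cells, of which 5 rose and 1 fell. Col16a1, a fibril-associated collagen, was 65.5, 87.3, 75.6, 69.5 and 79.2 CPM in AT2 Etv5KO, against 28.2, 32.0, 29.3 and 25.0 CPM in AT2 control, with no overlap, and rose by 1.40 ± 0.10 on the log2 scale (adjusted p = 1.02e-05). Efemp1, a fibulin-family glycoprotein, was 135, 140.2, 125, 126 and 145 CPM in AT2 Etv5KO, against 91.2, 80.7, 98.1 and 87.6 CPM in AT2 control, and rose by 0.59 ± 0.07 (adjusted p = 3.90e-04). Ltbp4, a latent TGF-beta binding protein of elastic fibres, rose by 0.72 ± 0.13 (adjusted p = 0.00374). Cthrc1, a secreted collagen triple helix repeat protein, was 7.74, 5.22, 3.93, 6.79 and 6.81 CPM in AT2 Etv5KO, against 21.1, 18.1, 22.0 and 18.9 CPM in AT2 control, and fell by 1.72 on the log2 scale (adjusted p = 8.57e-05). AT2 cells held Efemp1 at 95.4% of the lung level in Etv5KO and 77.9% in control, and Col16a1 at 99.0% and 49.2%, above all of the 33 low genes. Cthrc1 stood at 274% and 508%, and Ltbp4 at 3.49% and 2.29%.

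Of 20 further smooth muscle and pericyte genes, 12 were tested in AT2 cells, of which 2 rose and 3 fell (5.03% and 4.84% of all genes). These 20 genes summed to 954 ± 92.3 CPM in AT2 control (SD, n = 4) and 1780 ± 75.5 CPM in lung control (SD, n = 5). The smooth muscle and pericyte members summed to 16.4 ± 2.50 and 1195 ± 85.9 CPM in the same groups. Gene by gene, 19 of the 20 further genes were lower in AT2 control than in lung control and 1 was higher, against 38.9% and 35.6% of all genes. At least 4-fold lower were 17 of the 20, against 21.2% of all genes. The median log2 fold change of AT2 control over lung control was -5.65, against -6.42 for the members. Mylk, myosin light chain kinase, was 146, 167, 153, 148 and 137 CPM in AT2 Etv5KO, against 314, 315, 269.8 and 283 CPM in AT2 control, and fell, with a log2 fold change of -0.97 ± 0.07 (adjusted p = 1.54e-05). Cald1, the actin-binding protein caldesmon, was 56.3, 73.0, 50.6, 68.1 and 55.0 CPM in AT2 Etv5KO, against 128, 131, 132 and 102 CPM in AT2 control, and fell, with -1.02 ± 0.12 (adjusted p = 2.10e-04). The groups did not overlap for either gene. Lmod1, an actin nucleator of smooth muscle, rose by 0.93 ± 0.21 (adjusted p = 0.0136), and Tpm2, a tropomyosin, by 0.86 ± 0.22 (adjusted p = 0.0298).

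Of 20 further lung fibroblast genes, 15 were tested in AT2 cells, of which none rose and 1 fell (5.03% and 4.84% of all genes). This was Limch1, an actin and myosin regulator, with 159, 166, 151, 149 and 167 CPM in AT2 Etv5KO, against 295, 234, 282 and 299.9 CPM in AT2 control (-0.80 ± 0.08, adjusted p = 8.81e-05). The list of 20 summed to 1742 ± 264 CPM in AT2 control (SD, n = 4) and 4627 ± 391 CPM in lung control (SD, n = 5). The fibroblast members summed to 17.6 ± 2.31 and 1385 ± 351 CPM in the same groups. Gene by gene, 18 of the 19 further genes tested were lower in AT2 control than in lung control and 1 was higher, against 38.9% and 35.6% of all genes. At least 4-fold lower were 15 of the 19, against 21.2% of all genes. The median log2 fold change of AT2 control over lung control was -5.46, against -6.44 for the members. Of 13 collagen processing and cross-linking enzymes, 12 were tested, of which 1 rose and 1 fell: Pcolce, the enhancer of procollagen C-proteinase, rose by 0.61 ± 0.16 while Plod3, a lysyl hydroxylase, fell with -0.26 ± 0.07 (adjusted p = 0.0290 and 0.0491). In AT2 cells, the log2 fold change was positive for 45 of the 62 genes tested from these 4 lists, with a median of 0.29. Over all genes, 48.8% were positive and the median was -0.01. By list, it was positive for 20 of 23 interstitial matrix, 7 of 12 smooth muscle and pericyte, 13 of 15 lung fibroblast and 5 of 12 enzyme genes. The medians were 0.52, 0.24, 0.28 and -0.04 in that order. None of the 78 genes of these 4 lists tested in lung passed there, over a background of 0.415%. The difference of effects passed for 7 of 78, 4 higher and 3 lower, over a background of 1.59%. They were Col16a1 (1.01 ± 0.15, adjusted p = 4.81e-04), Mylk (-0.96 ± 0.14, adjusted p = 4.43e-04), Cald1 (-1.01 ± 0.15, adjusted p = 4.81e-04), Limch1 (-0.96 ± 0.20, adjusted p = 0.0133), Lmod1 (1.06 ± 0.23, adjusted p = 0.0189), Ltbp2, a latent TGF-beta binding protein (1.64 ± 0.32, adjusted p = 0.00882) and Twist2, a mesenchymal transcription factor (1.96 ± 0.47, adjusted p = 0.0402). Ltbp2 and Twist2 were named after their values were seen. Twist2 reached at most 0.459 CPM in AT2 Etv5KO and 0.178 CPM in AT2 control and was too low to be tested in AT2 cells alone.

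Summed over the 37 genes, AT2 libraries held 1520 ± 202 CPM in Etv5KO (SD, n = 5) and 1266 ± 86.8 CPM in control (SD, n = 4). Lung libraries held 13505 ± 2351 CPM in Etv5KO and 11965 ± 2829 CPM in control (SD, n = 5 each). Without Sparc, Fbln5, Col6a1 and Col6a2, the AT2 sum ran from 144 to 275 CPM in Etv5KO and from 133 to 192 CPM in control, so that the 4 genes made up most of the AT2 sum. These sums carry no test.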

How the data were processed

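The deposited counts give, for each gene model, its uniquely aligned reads, and the authors divided the RPKM column by a size factor for each sample, both per the file headers. GSNAP and genome build mm9 were used, per the submitters' processing notes. Annotation, counter and strandedness were not given in the sources used here, so overlapping and antisense genes cannot be told apart. Entrez IDs were named from a RefSeq table (31049 of 36528 IDs, 98.7% of counts). Its promoters are GRCm38.p6, not mm9.

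CPM was computed here from the counts with TMM factors over all 19 libraries. Counts were tested with edgeR 4.0.16 in R 4.3.3 (filterByExpr with minimum count 10 and minimum total 15, TMM, two-sided quasi-likelihood F test, Benjamini-Hochberg adjustment over all genes tested, threshold 0.05). AT2 and lung genotype comparisons, and tissue comparisons, were fitted separately, and the difference of effects over 19 libraries. Standard errors come from the F statistic. "Rose" and "fell" mean an adjusted p under the threshold. DESeq2 1.42.0, total counts, the authors' size factors, no filter, 1 joint fit and leaving out each library were the alternatives. The tests were tried on simulated data.

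Groups come from titles and characteristics, and libraries are numbered in accession order, which pairs nothing. Nothing in the labels says which libraries are separate animals beyond 5 mice per genotype, so p-values measure the spread between libraries. No 2 libraries of a group were duplicates (chi-square per degree of freedom 7.81 to 61.8). Values in every library are given for members past a genotype threshold, the member with the highest RPKM in control lung per role, the 4 highest and 4 lowest AT2 over lung, and the 3 smallest unadjusted p per direction and genotype comparison. From other lists, up to 4 genes with the smallest p were named. The members and lists were chosen with earlier results of these data known.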

Additional observations from a re-analysis of the deposited data

Results flagged for a closer look

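Of 120 groups of 4 or 5 libraries (30 genes and sums in 4 groups), 27 held 1 library far from the others of its group by Dixon's test, which by chance marks about 1 group in 20. Lung control library 1 was such a library for 11 of them, in each case on the high side, with 1783 CPM of Col3a1, 424 CPM of Col6a2, 1734 CPM of Eln, 189 CPM of Fbln5, 1157 CPM of Mfap4, 37.05 CPM of Mfap5 and 2770.0 CPM of Sparc. Its summed level was 5075 CPM for the collagens, 3778 CPM for the elastic fibre genes, 5783 CPM for the proteoglycans and matricellular genes and 16845 CPM for all 37 genes. Lung Etv5KO library 4 stood low, with 22.3 CPM of Mfap5, 1248 CPM for the elastic fibre genes and 9372 CPM for all 37 genes. Lung Etv5KO library 2 stood high in 2 proteoglycan genes, with 305 CPM of Dcn and 19.4 CPM of Lum. Lung control library 3 held 23.5 CPM of Wnt2.

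In sorted cells, AT2 Etv5KO library 3 stood high in both chains of collagen VI that AT2 cells hold, with 729 CPM of Col6a1 and 203 CPM of Col6a2. AT2 Etv5KO library 1 held 10.6 CPM of Dcn, the highest of its group, and 2.10 CPM of Postn, the lowest. AT2 control library 2 stood high within its group in some matrix genes, with 3.41 CPM of Col5a1, 5.21 CPM of Col6a3, 19.99 CPM of Eln and 1.65 CPM of Fbln1. Its summed elastic fibre genes held 69.1 CPM. Its Fbln1 level rested on 34 reads, against 24 to 33 in the other AT2 control libraries. Among all AT2 libraries, it was the highest for 2 of the listed genes and the lowest for 4. AT2 control library 4 held 0.178 CPM of Lum, from 3 reads.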

How the results depend on the processing

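No paired analysis was possible because the labels give no mouse or replicate number and the libraries were numbered in accession order only. Of 42 results on single genes, 36 kept their direction and their side of the threshold over the 635 alternative values computed. Most of the 42 compared AT2 cells with lung, where nearly all differences were large. Those that changed were Col5a1, Fbln5 and Col6a1 between genotypes in AT2 cells, Cspg4 between genotypes in lung, and Col6a1 in both tissue comparisons. Among all members tested between genotypes, the sign turned with 1 library left out for 7 of 32 in AT2 cells and 14 of 37 in lung. The median log2 fold change of the genes tested and the values of every gene with 1 library left out were added to the alternatives after the data were seen.

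In AT2 Etv5KO against AT2 control, leaving out 1 library gave 1 to 6 of the 37 genes higher, and 539 to 824 of all genes. Col6a1 was 0.032 on the log2 scale with total counts and -0.22 to 0.039 without 1 library (0.039, 0.026 and 0.036 without Etv5KO library 1, 4 or 5, and 0.0012 without control library 2). Cspg4 in lung was -0.15 to 0.0089 without 1 library. In lung, all genes past the threshold numbered 197 with DESeq2 (123 higher, 74 lower), 122 in the joint fit (70 higher), and 44 to 80 without 1 library (21 to 38 higher, 23 to 42 lower). With total counts, genes higher in AT2 cells than in lung numbered 3318 in control (0 of the 37) and 3579 in Etv5KO, Col6a1 was -0.11 in Etv5KO, the AT2 control sum of the 37 genes was 1080.2 CPM and the median AT2 level in control 1.25% of lung. Without the filter, 5192 genes were at least 4-fold lower in AT2 Etv5KO than in lung Etv5KO. The difference of effects passed for 467 genes with DESeq2 (241 higher, 226 lower), and for 85 to 161 lower without 1 library. The cause of these changes was not tested. Depth limits the low genes in AT2 cells, of which Lum, Wnt2, Fgf10, Mfap5 and Cnn1 had at most 25, 31, 42, 45 and 35 reads over all libraries of a group.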
